A study of Mus musculus with 5 samples.

Results

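The genes described here are the nuclear genes of oxidative phosphorylation: the Nduf, Sdh, Uqcr, Cox, Atp5 and cytochrome c genes that encode, or help to assemble, the respiratory chain and the ATP synthase, together with Etfa, Etfb and Etfdh, which pass electrons from fatty acid oxidation into the chain. They were chosen by symbol alone. The rule took 97 gene identifiers (96 symbols, since Atp5o is listed under 2 identifiers of which 1 had no UMI) out of 31053 genes in the count tables. By role they were 36 subunit genes of complex I, 8 assembly factors of complex I, 4 genes of complex II, 9 of complex III, 19 of complex IV, 17 of complex V, the cytochrome c gene Cycs and the 3 electron transfer flavoprotein genes (ETF). Cox4i2, an alternative subunit 4 of complex IV known from pericytes, was kept apart.

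Complexes I and II take electrons from NADH and succinate, complex III passes them to cytochrome c, complex IV hands them to oxygen, and complex V uses the resulting proton gradient to make ATP. Most subunits are encoded in the nucleus and imported, while a small core is encoded in mitochondrial DNA, so each of complexes I, III, IV and V is built from transcripts of both genomes. In the alveolus, type II (AT2) cells make and secrete surfactant and can divide and differentiate after injury, and endothelium is known to rely largely on glycolysis.

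Single-cell libraries came from lungs of adult mice on a C57BL/6 background, in which SP-C rtTA and Tet-O-Cre delete the floxed Itgb1 gene (integrin subunit beta 1) from AT2 cells after doxycycline; the deletion is thus limited to cells that use the SP-C promoter. Mice with the deletion are called Itgb1 iKO, and littermates that carried the floxed alleles without rtTA and Cre are called Itgb1 fl/fl; both received doxycycline. The 5 groups were Itgb1 fl/fl with lipopolysaccharide (LPS) at day 7, Itgb1 iKO with PBS at day 7, Itgb1 iKO with LPS at day 7, and both genotypes with LPS at day 21, with LPS or PBS given into the trachea. Each group was 1 library of pooled mice with 3 hashtag antibodies in use. Each hashtag was taken as 1 mouse, which gave 15 mice. The paper pooled 3 or more mice per group, so a hashtag could hold more than 1 mouse, and a mouse below means 1 hashtag. Live CD45- Ter119- cells were sorted, and the day 21 libraries were enriched for epithelium. A group and its library therefore cannot be told apart, and every test below measures the spread between mice that shared a library.

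The libraries held 2224 to 8671 cells that passed the limits (700 genes or more, and 0.1 to 15% of UMIs from mitochondrial DNA), with a median of 2219 to 5330 UMIs per cell. AT2 cells (Sftpc at 5% or more of UMIs, Epcam detected, no Cdh5, Pecam1 or Col1a2) held a median of 7615 to 11251 UMIs in the 5 libraries, and endothelial cells (at least 2 UMIs of Cdh5 and Pecam1, no Epcam or Col1a2) 1993 to 2490. Per mouse, AT2 cells numbered 17 to 54 in Itgb1 fl/fl at day 7, 41 to 101 in Itgb1 iKO with LPS at day 7, 32 to 67 in Itgb1 fl/fl at day 21 and 251 to 302 in Itgb1 iKO at day 21, but only 4, 2 and 9 in the PBS mice, so 13 of 15 mice entered the AT2 tests. Endothelial cells numbered 144 to 2290 per mouse. All 14 AT2 markers exceeded 10 CPM in the AT2 cells of every library, while all 14 endothelial markers did so in the endothelial cells. The marker lists hold genes of the gates themselves, among them Epcam, Cdh5 and Pecam1, so this describes the gated cells and does not test the gates. Libraries shared 15 to 102 cell barcodes. AT2 levels of Itgb1 were 258, 235 and 305 CPM in Itgb1 fl/fl and 214, 150 and 193 CPM in Itgb1 iKO at day 7, and 356, 319 and 372 against 141, 178 and 146 CPM at day 21. The sexes were not balanced at day 7. The female transcript Xist was at 335 to 346 CPM in endothelial cells of the 3 Itgb1 fl/fl mice and at 0 in the 3 Itgb1 iKO mice given LPS, which expressed the Y-linked Ddx3y at 62.9 to 68.0 CPM, so genotype and sex cannot be told apart there. At day 21 both transcripts were found in both genotypes, and some hashtags held both. In AT2 cells Itgb1 fl/fl mouse 1 had 21 Xist and 10 Ddx3y UMIs, and Itgb1 iKO mouse 2 had 27 and 44. Whether such a hashtag mixed cells of more than 1 mouse was not tested.

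The transcripts of oxidative phosphorylation were a steady but modest share of the RNA in both cell types. Of the 97 members, 61 averaged 100 CPM (counts per 1e6: a gene's UMIs scaled to the total UMIs of the mouse's cells of that type) or more in AT2 cells, 25 were from 10 to 100 CPM and 11 were under 10 CPM, of which 3 had no UMI. In endothelial cells the same classes held 67, 21 and 9 members, again with 3 at no UMI. These are 5′ UMI counts, which were not divided by gene length, so levels are compared between cells and not between genes.

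Summed over all members, the nuclear genes took 1.77, 1.89 and 1.99% of AT2 UMIs in the 3 Itgb1 fl/fl mice at day 7 and 1.87, 1.80 and 2.17% in the Itgb1 iKO mice given LPS. At day 21 they took 1.501, 1.67 and 1.47% in Itgb1 fl/fl and 1.39, 1.41 and 1.35% in Itgb1 iKO, and the PBS mouse with 9 AT2 cells was at 1.52%. The genotypes overlapped at day 7, whereas at day 21 all 3 Itgb1 iKO mice lay below all 3 Itgb1 fl/fl mice. In endothelial cells the sum was 1.77, 1.82 and 1.94% in Itgb1 fl/fl at day 7, 1.68, 1.59 and 1.69% in the PBS mice, 1.75, 1.78 and 1.86% in Itgb1 iKO with LPS at day 7, 1.73, 1.74 and 1.73% in Itgb1 fl/fl at day 21 and 1.59, 1.59 and 1.56% in Itgb1 iKO at day 21. Here too the day 21 Itgb1 iKO mice were the lowest, although Itgb1 is not deleted from endothelium. These sums are a description, with no test, and fewer transcripts per cell cannot be told apart from more of other transcripts.

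**Figure D1:**
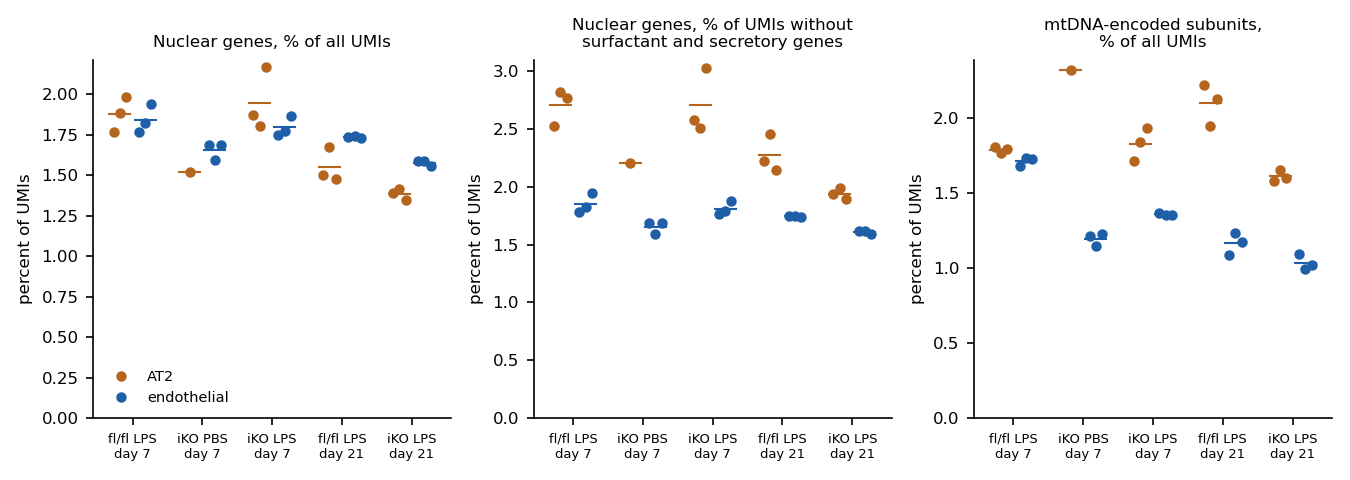
Share of UMIs taken by the 97 nuclear genes (left), by the same genes after surfactant and secretory genes were left out of the total (middle) and by the 13 subunits encoded in mitochondrial DNA (right). Each point is 1 mouse with at least 5 cells of the type, lines are group means, the vertical axes start at 0, and AT2 and endothelial points overlap at left (1.35 to 2.17% against 1.56 to 1.94%) but part in the middle for most mice (1.89 to 3.02% against 1.59 to 1.95%).

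How the AT2 share compared with endothelium depended on the total that it was divided by. A list of 9 surfactant and secretory genes held 27.4 to 33.1% of all AT2 UMIs, against 0.0756 to 2.09% of endothelial UMIs. As a share of all UMIs the nuclear genes spanned 1.35 to 2.17% in AT2 and 1.56 to 1.94% in endothelial cells, ranges that overlapped. With the secretory genes left out of the total the ranges were 1.89 to 3.02% and 1.59 to 1.95%. Per cell, AT2 cells held 188 ± 50.1 (SD, n = 3) UMIs of these genes in Itgb1 fl/fl at day 7, against 52.7 ± 5.96 in endothelial cells of the same mice.

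The subunits encoded in mitochondrial DNA followed another pattern than their nuclear partners. They took 1.58 to 2.32% of AT2 UMIs and 0.991 to 1.73% of endothelial UMIs. In endothelial cells they were at 1.68, 1.73 and 1.73% in Itgb1 fl/fl at day 7 but at 1.37, 1.35 and 1.36% in Itgb1 iKO with LPS at day 7, 2 groups that did not overlap while their nuclear sums did. In AT2 cells the day 21 values were 2.22, 1.94 and 2.13% in Itgb1 fl/fl and 1.58, 1.65 and 1.60% in Itgb1 iKO. Both genomes' transcripts were thus lower in the day 21 Itgb1 iKO AT2 cells, whose 3 mice had 0.881, 0.856 and 0.844 nuclear UMIs per mitochondrial UMI, against 0.677, 0.861 and 0.693 in Itgb1 fl/fl.

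The make-up of the module was close between the cell types. Complex I gave 31.3% of the members' UMIs in AT2 and 31.5% in endothelial cells, complex IV 26.6 and 25.3%, complex V 27.4 and 26.2%, and complex III 9.99 and 10.9%. Smaller classes differed more in proportion. Complex II gave 1.68% in AT2 and 2.63% in endothelial cells, the assembly factors 0.935 and 1.48%, cytochrome c 0.678 and 1.09%, and the ETF genes 1.41 and 0.985%.

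The members' promoters were searched for short letter patterns, none of which was found in most of them. RefSeq (GRCm38.p6) gave a window of 250 bases before to 50 bases after the start for 80 member genes. The letters GCGC, any 2 bases and GCGC again, the core of the site of NRF1 (nuclear respiratory factor 1, known as a regulator of respiratory chain genes), were found on either strand for 23 of the 80 genes (28.8%), against 1891 of 27025 genes (7.00%). CCGGAAG, the core of sites of the ETS family that includes GABP, was found for 18 genes (22.5%, against 9.93% of all), GGGCGG, the SP/KLF core, for 38 (47.5%, against 38.2%), and TATAAA for 7 (8.75%, against 15.7%). Such a match is a description and not a site shown to be bound. Shown here with the NRF1 letters in capitals are the 250 bases before the start of Cox6a1 (chr5:115348959-115349208, minus strand), the widely used subunit 6A of complex IV, and of Etfb (chr7:43443822-43444071, plus strand), the beta subunit of electron transfer flavoprotein and a member called between genotypes in both cell types at day 7.
Cox6a1 promoter: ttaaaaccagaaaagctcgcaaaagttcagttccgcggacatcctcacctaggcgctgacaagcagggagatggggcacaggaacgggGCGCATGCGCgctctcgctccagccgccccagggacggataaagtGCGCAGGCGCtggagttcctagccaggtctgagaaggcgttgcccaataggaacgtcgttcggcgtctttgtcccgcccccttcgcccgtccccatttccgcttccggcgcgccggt
Etfb promoter: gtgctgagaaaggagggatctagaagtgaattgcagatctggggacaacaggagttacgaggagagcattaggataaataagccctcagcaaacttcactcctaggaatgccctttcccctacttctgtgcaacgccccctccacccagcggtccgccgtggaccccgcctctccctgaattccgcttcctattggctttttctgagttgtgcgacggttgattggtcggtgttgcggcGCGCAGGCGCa
The Cox6a1 stretch held 2 matches, which began at bases 89 and 134 of the 250, and the Etfb stretch held 1, which began at base 240.

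Compared within mice, most members were higher in AT2 than in endothelial cells once libraries were scaled by TMM, edgeR's scaling to the bulk of genes. This comparison asks how the respiratory chain programme differs between the cell type that lost Itgb1 and the endothelium beside it, of all vessel types that the gate takes. Of 93 members tested over 13 mice, 46 were higher and 5 lower in AT2 (edgeR quasi-likelihood test with mouse as a block, Benjamini-Hochberg adjusted p under 0.05 over all genes), where 57.6% of all 10632 genes were called, 21.6% higher and 35.9% lower. The members' median log2 fold change was 0.29, against -0.37 over all genes. The split depended on the scaling. With library totals in place of TMM, 13 members were higher and 46 lower (median -0.25, all genes -0.90), and with every cell thinned to 2000 UMIs 9 were higher and 14 lower (median -0.15, all genes -0.94). Of the 51 members called on the TMM scale, 14 turned direction with library totals, and 18 were called in the same direction under all 4 scalings tried on all cells, 13 of them higher and 5 lower. Library totals shift every gene by nearly the same amount, so they leave the distance between the members' median and that of all genes as it was (0.66). Without the 1 PBS mouse, which had 9 AT2 cells, 64 members were higher and 7 lower of 92 tested, with a median of 0.41. By group, 50 members were higher and 1 lower in Itgb1 fl/fl at day 7, where 49.2% of all genes were called (23% higher and 26.2% lower). In Itgb1 iKO with LPS at day 7, 60 were higher and 5 lower (56.8% of all genes called, 26.2% higher and 30.6% lower). At day 21, 46 were higher and 4 lower in Itgb1 fl/fl (50.8% called, 25.2% higher and 25.6% lower), and 36 and 6 in Itgb1 iKO (57.4% called, 27.7% higher and 29.7% lower). The lone PBS mouse gave 6 and 0 (14.9% called, 7.73% higher and 7.21% lower).

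On the TMM scale the proton-pumping complexes and the ATP synthase carried the higher calls. In complex I, 18 of 36 subunit genes were higher and 1 lower, among them Ndufa13 (log2 fold change 1.00, SE 0.10) and Ndufc2 (0.93, SE 0.10), both accessory subunits. Ndufa13 stood at 269 to 375 CPM in AT2 cells of the LPS-treated mice and at 193 to 268 CPM in endothelial cells of all mice, ranges that did not overlap. In complex III, 5 of 9 were higher, among them Uqcr11 (0.67, SE 0.10) and Uqcrh (0.60, SE 0.10), while Uqcrb was at 0.14 (SE 0.09, edgeR adjusted p = 0.16) and, without the PBS mouse, at 0.17 (adjusted p = 0.012). None of those 5 was called higher under all scalings. With library totals Uqcr11 and Uqcrh were at 0.13 and 0.06, and Uqcrq, Uqcrfs1 and Uqcr10 at -0.16, -0.19 and -0.25. In complex IV, 11 of 16 tested were higher, among them Cox6c (0.97, SE 0.08), Cox8a (0.74, SE 0.08) and Cox4i1 (0.58, SE 0.07). With library totals Cox6c, Cox8a and Cox4i1 were at 0.44, 0.20 and 0.04. In complex V, 9 of 16 tested were higher and none lower, with Atp5d (1.07, SE 0.09), the delta subunit, and Atp5e (1.06, SE 0.08), the epsilon subunit, and Atp5f1 (0.94, SE 0.13) among them, and the last was at 1.18 (SE 0.06) without the PBS mouse. The delta and epsilon subunits sit in the central stalk of the enzyme. The medians were 0.34 for complex I, 0.29 for complex III, 0.57 for complex IV and 0.36 for complex V. Without the PBS mouse, the higher counts rose to 27, 7, 12 and 14.

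The ETF genes were split. Etfb was higher in AT2 cells by 1.74 (SE 0.16, edgeR adjusted p = 7.2e-21) and Etfa by 0.53 (SE 0.18, edgeR adjusted p = 0.0083), while Etfdh was at -0.05 (SE 0.24). Etfb stayed above 0 with library totals (1.20), whereas Etfa moved to -0.0080. Without the PBS mouse the values were 1.77, 0.65 and 0.04.

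Complex II, cytochrome c and the assembly factors held fewer higher calls. Among the 4 subunits of succinate dehydrogenase, Sdhb, the iron-sulphur subunit, was lower in AT2 (-0.70, SE 0.11, edgeR adjusted p = 1.3e-09), at 63.8 to 135 CPM in AT2 cells of the LPS-treated mice and 188 to 231 CPM in endothelial cells, whereas Sdhc, a membrane anchor, was higher (0.61). The flavoprotein Sdha was at -0.04 (SE 0.15) and the anchor Sdhd at 0.02 (SE 0.16), neither called. Cycs was at -0.22 (SE 0.11, edgeR adjusted p = 0.080), and at -0.19 (SE 0.07, adjusted p = 0.015) without the PBS mouse. Of the 8 complex I assembly factors none was higher and Ndufaf4 and Ndufaf6 were lower. Ndufaf4 was at 2.64 to 18.5 CPM in AT2 cells of the LPS-treated mice and 23.4 to 51.8 CPM in endothelial cells of all mice. The fitted fold changes of this pair, -2.71 and -2.29, leaned on the PBS mouse, in which neither had a UMI, and were -1.21 (SE 0.19) and -0.84 (SE 0.25) without it. Ndufaf8 was at 0.09 (SE 0.34), and at 0.51 (SE 0.13) without that mouse, where it was called.

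**Figure D2:**
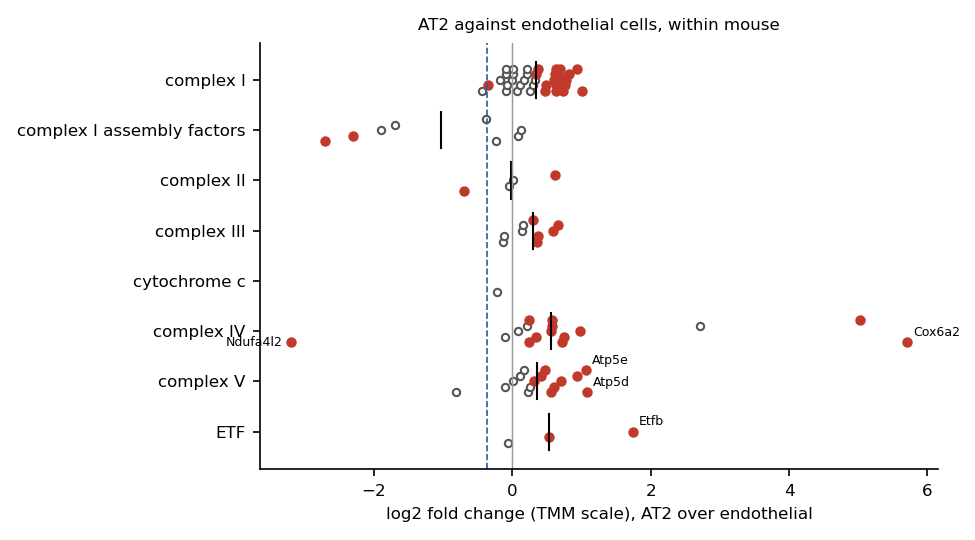
Log2 fold change of each tested member between AT2 and endothelial cells of the same mice on the TMM scale, by complex. Filled points passed an adjusted p of 0.05, open points did not, black lines are medians of complexes with more than 2 members, and the dashed line is the median of all genes (-0.37), left of most members.

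The widest gaps belonged to alternative subunits. Cox6a2, the subunit 6A form known from heart and skeletal muscle, was at 403, 352 and 371 CPM in AT2 cells of Itgb1 fl/fl mice at day 7, and at 160, 188 and 141 CPM in Itgb1 iKO mice given LPS. At day 21 it was at 156, 241 and 207 CPM in Itgb1 fl/fl and at 119, 155 and 88.7 CPM in Itgb1 iKO. Every AT2 value from a mouse with at least 5 cells lay far above the endothelial values, which ran from 0 to 17.9 CPM. The log2 fold change of AT2 over endothelial cells was 5.71 (SE 0.26, edgeR adjusted p = 4.2e-38), and it was 5.17 with library totals. Its partner Cox6a1 was at 190 to 340 CPM in AT2 cells of the LPS-treated mice and 308 to 415 CPM in endothelial cells, with a fold change of -0.11 (SE 0.09, edgeR adjusted p = 0.34). Surfactant RNA was also present in endothelial cells. Per 1000 Sftpc UMIs there were 1.68 Cox6a2 UMIs in AT2 and 2.54 in endothelial cells in Itgb1 fl/fl at day 7, 0.848 and 1.01 in Itgb1 fl/fl at day 21, and 0.556 and 0.730 in Itgb1 iKO at day 21, while the day 7 Itgb1 iKO libraries gave 0.891 and 3.57 with PBS and 0.722 and 1.63 with LPS. The part of free RNA in these endothelial counts was not tested.

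The pair can be told apart by sequence. Over 291 aligned coding bases Cox6a1 and Cox6a2 were 65.3% identical, and the longest run shared without a mismatch was 12 bases. The first 120 coding bases are shown, with the start codon in capitals, because the counts come from the 5′ end of transcripts.
Cox6a1 coding start: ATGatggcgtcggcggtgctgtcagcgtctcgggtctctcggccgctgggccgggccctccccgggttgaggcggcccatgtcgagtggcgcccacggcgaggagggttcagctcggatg
Cox6a2 coding start: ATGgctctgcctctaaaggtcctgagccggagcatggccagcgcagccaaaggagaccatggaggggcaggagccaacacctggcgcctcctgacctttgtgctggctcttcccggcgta
Cox6a1 lies at chr5:115345642-115348981 and Cox6a2 at chr7:128205435-128206387 (GRCm38, both on the minus strand). The short Cox6a2 gene lies within the span of Itgad, which is on the other strand.

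Other tissue forms were scarce or absent. Cox6b2, a subunit 6B form known from testis, was at 3.94 to 50.4 CPM in AT2 cells and 0 to 3.86 CPM in endothelial cells, with a log2 fold change of 5.03 (SE 1.06, edgeR adjusted p = 1.3e-05) and of 4.32 (SE 0.45) without the PBS mouse, while the common Cox6b1 was at 0.58 (SE 0.10). Cox7a1 and Cox8b, muscle forms of subunits 7A and 8, reached 17.4 and 0.370 CPM at most in AT2 cells and 2.20 and 2.79 CPM in endothelial cells, and Cox8c had no UMI in either. The common Cox7a2 was at 0.21 (SE 0.10, edgeR adjusted p = 0.050) and was not called, but was at 0.34 (adjusted p = 5.9e-07) without the PBS mouse, and Cox8a was called higher. Among members lower in AT2, Ndufa4l2 stood at 0 to 6.18 CPM against 2.99 to 21.6 CPM in endothelial cells (log2 fold change -3.20, SE 0.88, and -2.37, SE 0.53, without the PBS mouse). Its common relative Ndufa4, at 0.24 (SE 0.08), turned to -0.30 with library totals.

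Between genotypes at day 7, 2 members differed in AT2 cells. The question here is what loss of Itgb1 from AT2 cells does to the programme after injury. Of 86 members tested, Etfb was higher and Cox6a2 lower in Itgb1 iKO, where 1.8% of all genes were called (0.879% higher and 0.918% lower), and the members' median was -0.03 against 0.01 for all genes. Etfb was at 98.4, 86.5 and 100 CPM in Itgb1 fl/fl and 255, 259 and 234 CPM in Itgb1 iKO with LPS, without overlap (log2 fold change 1.29, SE 0.17, edgeR adjusted p = 8.1e-07). Cox6a2 fell from the 352 to 403 CPM given above to 141 to 188 CPM (-1.28, SE 0.19, edgeR adjusted p = 2.2e-04). With cells thinned to 2000 UMIs neither was called (1.11 and -0.91). No other member of any complex passed, and the medians of complexes I, III, IV and V lay between -0.09 and 0.01. The other ETF genes, Etfa at 0.19 (SE 0.22) and Etfdh, the oxidoreductase that hands electrons to ubiquinone, at -0.48 (SE 0.38), were not called. In the same AT2 cells 4 of 9 tested AT1 markers were higher in Itgb1 iKO, and 3 of the 9 surfactant and secretory genes were lower. Their part in the Cox6a2 difference was not tested. The club cell marker sum of 1 Itgb1 fl/fl mouse, 15154 CPM against 1295 and 1890 CPM in the others, stood apart, and both calls held without that mouse.

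The Etfb difference at day 7 was not limited to the cells that lost Itgb1. In endothelial cells Etfb was at 38.5, 39.8 and 44.7 CPM in Itgb1 fl/fl and at 82.0, 80.4 and 95 CPM in Itgb1 iKO with LPS (log2 fold change 1.05, SE 0.10, edgeR adjusted p = 2.7e-07). It was the only one of 91 members called there, where 2.55% of all genes were called (1.73% higher and 0.825% lower). Markers of other cells differed here as well, with 3 of 7 tested fibroblast markers higher in Itgb1 iKO (Mfap4 1.47, Col1a1 0.91 and Col3a1 0.87), 6 of 8 ciliated cell markers lower (median -2.40) and Hba-a1 and Hba-a2 higher. The 8 fibroblast markers summed to 122 CPM in Itgb1 fl/fl and 263 CPM in Itgb1 iKO with LPS, but to 39.6 CPM with PBS, and the 8 ciliated cell markers to 125, 67.3 and 76.7 CPM. Their part in the Etfb difference was not tested. The Itgb1 iKO mice given PBS were also high, at 69.2, 60.7 and 69.9 CPM, so both day 7 Itgb1 iKO libraries lay above the Itgb1 fl/fl library. At day 21 the endothelial values were 48.7, 36.7 and 43.9 CPM in Itgb1 fl/fl and 48.8, 44.8 and 43.8 CPM in Itgb1 iKO, a difference of 0.07 (SE 0.20). In pooled pericytes, gated below, Etfb was at 30.0 CPM in Itgb1 fl/fl at day 7 (exact Poisson 95% interval 15 to 53.6), 125 with PBS (62.6 to 224) and 107 in Itgb1 iKO with LPS (75.9 to 146), and at 68.6 (42.5 to 105) and 44.7 (20.4 to 84.8) in Itgb1 fl/fl and Itgb1 iKO at day 21. The difference between the AT2 and the endothelial fold change was 0.26 (SE 0.23) and was not called (edgeR adjusted p = 0.80).

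Sex went with library here in part. All day 7 Itgb1 fl/fl mice had the high Xist level given above, but of the PBS mice, whose Xist was at 203, 10.3 and 7.03 CPM, the one with high Xist had Etfb at 69.2 CPM against 60.7 and 69.9 CPM in the others. Etfb lies on chromosome 7 (43444083 to 43457800, plus strand) and its span overlaps the annotated same-strand genes Gm45233, Gm44816 and Mir7051. How the counting treated reads from the shared stretches was not tested. The part of sex in the Etfb difference was not tested.

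**Figure D3:**
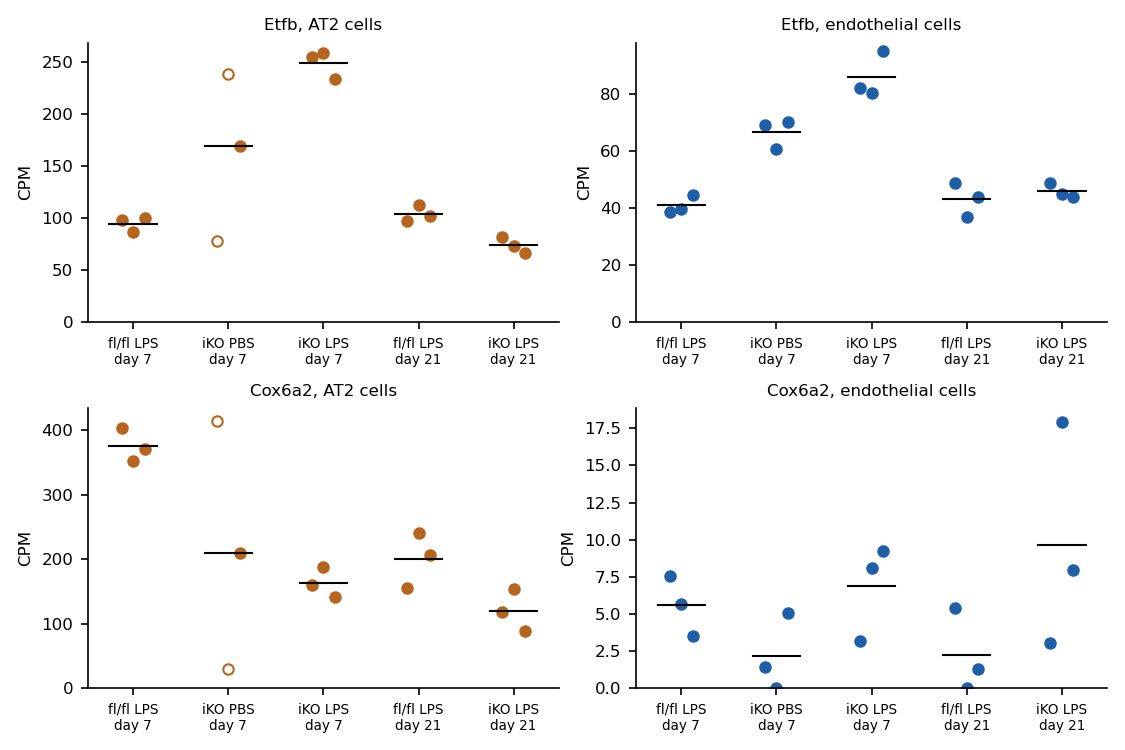
Etfb (top) and Cox6a2 (bottom) in AT2 (left) and endothelial cells (right), in CPM per mouse with axes from 0. Filled points are mice with at least 5 cells of the type, open points the 2 PBS mice with fewer, and lines group means; Etfb is high in Itgb1 iKO mice at day 7 in both cell types, and Cox6a2 is near 0 in endothelial cells.

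The genotype difference in Etfb changed with time. In AT2 cells at day 21 Etfb was at 97.6, 113 and 103 CPM in Itgb1 fl/fl and at 82.3, 73.8 and 66.9 CPM in Itgb1 iKO, again without overlap but in the other direction (-0.58, SE 0.15, edgeR adjusted p = 0.019). That call was lost without Itgb1 fl/fl mouse 2 or 3 or Itgb1 iKO mouse 3 (adjusted p = 0.078, 0.072 and 0.11), with library totals (0.059), with hashtags called by share (0.40) and with thinned cells (0.43). The change of the genotype effect from day 7 to day 21 was -1.87 (SE 0.23, edgeR adjusted p = 3.6e-07) in AT2 cells, where 0.484% of all genes were called (0.28% higher and 0.204% lower), and -0.98 (SE 0.22, edgeR adjusted p = 0.032) in endothelial cells, where 0.987% were (0.349% higher and 0.638% lower). No other member was called in either test. The AT2 call was lost with thinned cells (-1.77, edgeR adjusted p = 0.087), and the endothelial call when any of 6 of the 12 mice was left out. Day 7 and day 21 libraries differ in epithelial enrichment as well as in time, and these cannot be told apart.

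At day 21 most members had lower fitted levels in AT2 cells of Itgb1 iKO mice, and few passed the threshold. Of 86 members tested, 5 were lower and none higher, where 3.34% of all genes were called (1.43% higher and 1.91% lower). Fold changes were negative for 77 of the 86 members, and their median was -0.21 against 0.02 over all genes, of which 52% were positive. With library totals the median was -0.11 against 0.11 over all genes, 66 members were negative and 2 were called. By role, medians were -0.31 for complex V, whose 15 tested members were all negative, and -0.23 for complex III, -0.21 for complex I, -0.20 for complex IV and -0.10 for complex II, and near 0 for the assembly factors (-0.01) and the ETF genes (0.00).

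The 5 members that fell had small steps. Cox6a2 is given above (-0.83, SE 0.18, edgeR adjusted p = 0.0065), as is Etfb. Ndufb5, an accessory subunit of the membrane arm of complex I, was at 156, 162 and 138 CPM in Itgb1 fl/fl and at 96.9, 121 and 104 CPM in Itgb1 iKO (-0.57, SE 0.15, edgeR adjusted p = 0.016). Cox7a2l, a relative of the complex IV subunit gene Cox7a2, was at 132, 162 and 114 CPM against 93.3, 99.4 and 91.3 CPM (-0.57, SE 0.15, edgeR adjusted p = 0.019). Atp5o, a stalk subunit of the ATP synthase also called OSCP, was at 179, 215 and 157 CPM against 134, 143 and 131 CPM (-0.49, SE 0.14, edgeR adjusted p = 0.030). For these 3 genes and Etfb every Itgb1 iKO mouse lay below every Itgb1 fl/fl mouse. So did those of Cox6a2, though only by a step from 155 to 156 CPM. All 5 were picked by a test on the same mice, so the separation adds no support. The count of 5 became 2 without Itgb1 fl/fl mouse 1, 1 without mouse 2, 3 without Itgb1 iKO mouse 1 and 1 without mouse 3.

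Other measures moved with this comparison. AT2 cells had a median of 11251 UMIs in the Itgb1 fl/fl library and 8312 in the Itgb1 iKO library, and they held 171 ± 9.85 and 122 ± 4.88 UMIs of the members per cell (SD, n = 3 each). The surfactant and secretory genes were at 31.9 ± 0.566 and 28.6 ± 0.426% of UMIs. With cells thinned to a common depth the median was -0.18 against -0.01 over all genes and 3 members were called. Of the 13 subunits encoded in mitochondrial DNA, 10 were lower in Itgb1 iKO (median -0.44), mt-Atp8, mt-Nd2 and mt-Nd1 by most. The part of depth per cell in these differences was not tested beyond the thinning.

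**Figure D4:**
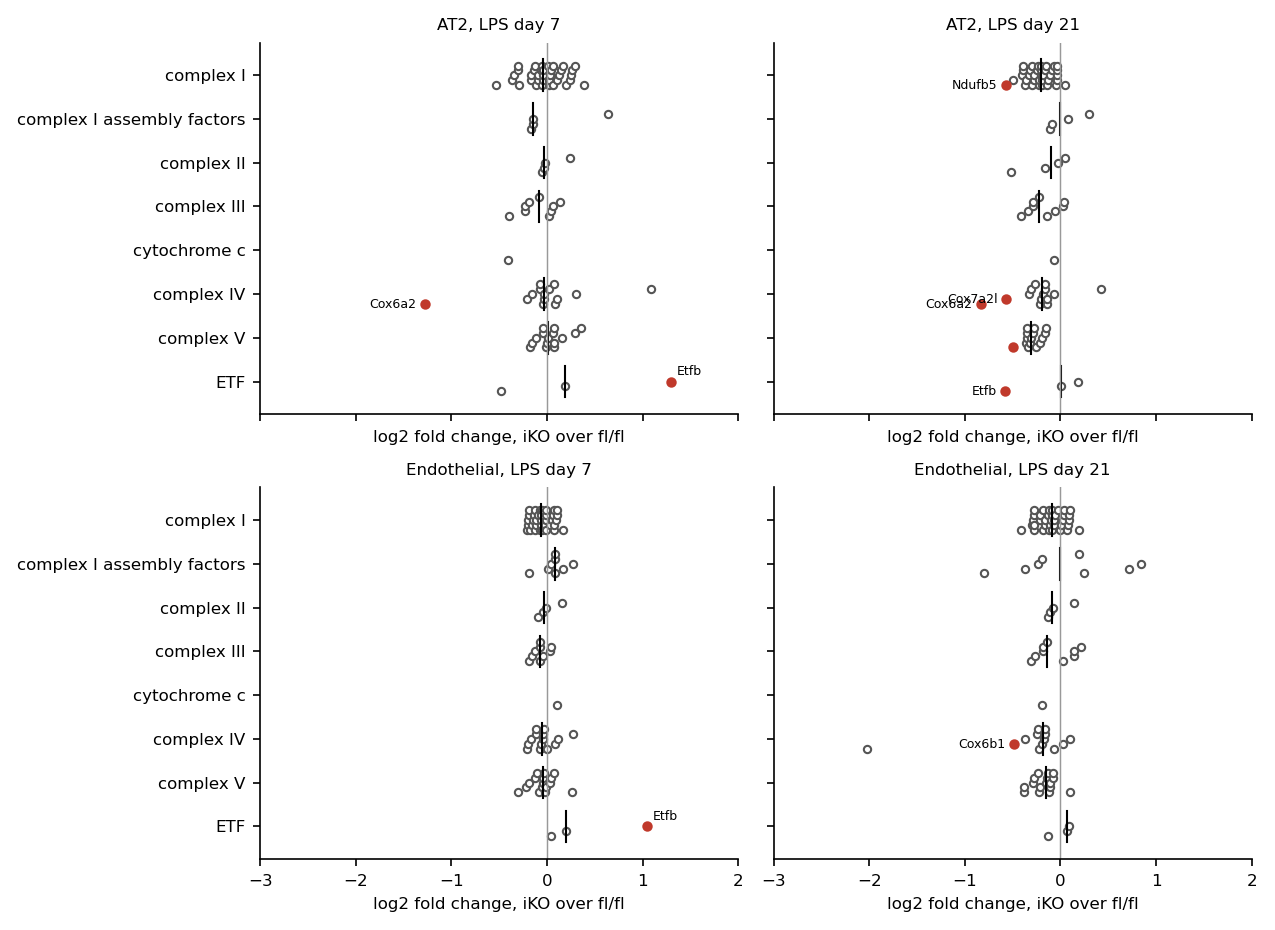
Log2 fold change of each tested member between Itgb1 iKO and Itgb1 fl/fl mice given LPS, in AT2 (top) and endothelial cells (bottom) at day 7 (left) and day 21 (right), by complex, on the TMM scale. Filled points passed an adjusted p of 0.05 and are named except Atp5o in AT2 cells at day 21, open points did not, and lines are medians of complexes with more than 2 members; at day 7 points centre near 0, and at day 21 most AT2 points lie left of 0.

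Endothelial cells, which keep Itgb1, showed 1 call at day 21. Of 91 members tested only Cox6b1, a subunit of complex IV on its outer face, was lower in Itgb1 iKO, at 223, 245 and 211 CPM against 312, 367 and 283 CPM (-0.49, SE 0.11, edgeR adjusted p = 0.033), where 0.519% of all genes were called (0.23% higher and 0.289% lower). The groups did not overlap, which adds no support since the gene was picked on the same mice. The call was lost when any of 5 of the 6 mice was left out. Fold changes were negative for 66 of the 91 members, with a median of -0.13 against -0.01 over all genes. The surfactant and secretory genes stood at 1.97 ± 0.102% of UMIs in these Itgb1 iKO endothelial cells and at 0.503 ± 0.177% in Itgb1 fl/fl, and their part in the shift was not tested. With those genes left out of the total the summed share was 1.61 ± 0.0168% against 1.74 ± 0.0031%.

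The difference between cell types in the genotype effect was called for Cox6a2 alone. AT2 minus endothelial it was -1.53 (SE 0.31, edgeR adjusted p = 9.1e-04) at day 7, where 1.21% of all genes were called (0.536% higher and 0.677% lower), and -3.16 (SE 0.75, edgeR adjusted p = 0.010) at day 21, where 1.03% were called (0.536% higher and 0.498% lower). At day 21 the AT2 effect was -0.83, and the endothelial value of 2.32 (SE 1.46, edgeR adjusted p = 0.61) made up most of the difference. In the same endothelial cells Sftpc was at 2.28 (SE 0.46, edgeR adjusted p = 0.061), Sftpd at 2.32 and Sftpa1 at 2.08, and the 13 tested AT2 markers had a median of 1.98 with none called. Their part in the Cox6a2 difference was not tested. The endothelial side of this contrast rests on levels of 0 to 17.9 CPM, and neither call held without the mouse block, with DESeq2 or with thinned cells. It was also lost at day 7 without Itgb1 iKO mouse 3, and at day 21 without Itgb1 fl/fl mouse 2 or 3 or Itgb1 iKO mouse 2.

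LPS against PBS could be tested in endothelial cells of Itgb1 iKO mice at day 7, where few members were called. Of 91 members 3 were higher and 1 lower with LPS, against 26.1% of all genes called (14.3% higher and 11.9% lower), and the median was 0.03 against 0.02 over all genes. Cox5a, a subunit of complex IV, was at 196, 176 and 182 CPM with PBS and 221, 237 and 280 CPM with LPS (0.32, edgeR adjusted p = 0.0097). Atp5g2, a gene for the c ring of the ATP synthase, was at 360, 335 and 349 CPM against 436, 417 and 501 CPM (0.28, edgeR adjusted p = 0.015), and Etfb rose by 0.27 (edgeR adjusted p = 0.037). Ndufa7, of complex I, was at 312, 305 and 350 CPM against 298, 291 and 274 CPM (-0.26, edgeR adjusted p = 0.039). Each of these 4 separated the 3 PBS from the 3 LPS mice, but they were picked by a test on the same mice, so this adds no support. Markers of other cells moved in the same comparison. With LPS, 11 of 13 tested AT2 markers (median 3.05), 7 of 7 fibroblast markers (median 2.02) and 5 of 6 club cell markers (median 2.47) were higher, and 7 of 14 endothelial markers were lower (median -0.25). Their part in the member calls was not tested. With library totals 10 members were higher and none lower, since all genes then shifted by 0.11. The count was 1 without PBS mouse 2 or 3, 6 without PBS mouse 1, and 0 without LPS mouse 3. In AT2 cells no test was possible with 1 PBS mouse of at least 5 cells, and the 2 PBS mice below that number had Etfb at 77.7 and 239 CPM.

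X-linked members gave no genotype call. Ndufa1 and Ndufb11 of complex I and Cox7b of complex IV had fold changes between genotypes of 0.01, 0.10 and -0.03 in AT2 cells at day 7 and -0.05, -0.23 and -0.07 at day 21, with none called in either cell type at either day, although the day 7 groups differed in sex. All 3 were higher in AT2 than in endothelial cells, by 0.68, 0.77 and 0.72.

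Cox4i2 marked another cell. Pericytes were gated by Pdgfrb and at least 2 UMIs of Cspg4, Notch3, Higd1b and Rgs5, with no Epcam, Cdh5, Pecam1 or Dcn, and numbered 78, 40, 91, 123 and 92 in the 5 libraries, with mice pooled. Cox4i2 stood there at 2326 CPM in Itgb1 fl/fl at day 7, 5162 in Itgb1 iKO with PBS, 3448 in Itgb1 iKO with LPS, 4723 in Itgb1 fl/fl at day 21 and 4625 CPM in Itgb1 iKO at day 21. In endothelial cells it was at 17.6 to 33.3 CPM and in AT2 cells at 8.74 to 27.3 CPM. A UMI of Cox4i2 was found in 74.4 to 97.5% of pericytes, 3.18 to 6.01% of endothelial cells and 6.85 to 23.1% of AT2 cells, the last being deeper cells. Its ubiquitous counterpart Cox4i1 was at 462 to 802 CPM in all 3 gates, so pericytes held both forms. With 1 library per group these pericyte levels have no replicate check, and the order of the libraries is a description.

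Ndufa4l2, which is known as a hypoxia-responsive relative of Ndufa4, went with Cox4i2 in pericytes and endothelial cells but not in AT2 cells. It was at 877 to 2290 CPM in pericytes, 3.89 to 14.5 CPM in endothelial and 0 to 1.55 CPM in AT2 cells. Per 1000 Cox4i2 UMIs there were 347 to 444 Ndufa4l2 UMIs in pericytes and 186 to 510 in endothelial cells. In AT2 cells there were 0 to 85.7, from 0 to 6 Ndufa4l2 UMIs per library. The summed level of 12 pericyte markers in endothelial cells was 66.6 to 191 CPM, against 0 to 19.2 CPM in AT2 cells, and the part of pericyte RNA in the endothelial counts was not tested.

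**Figure D5:**
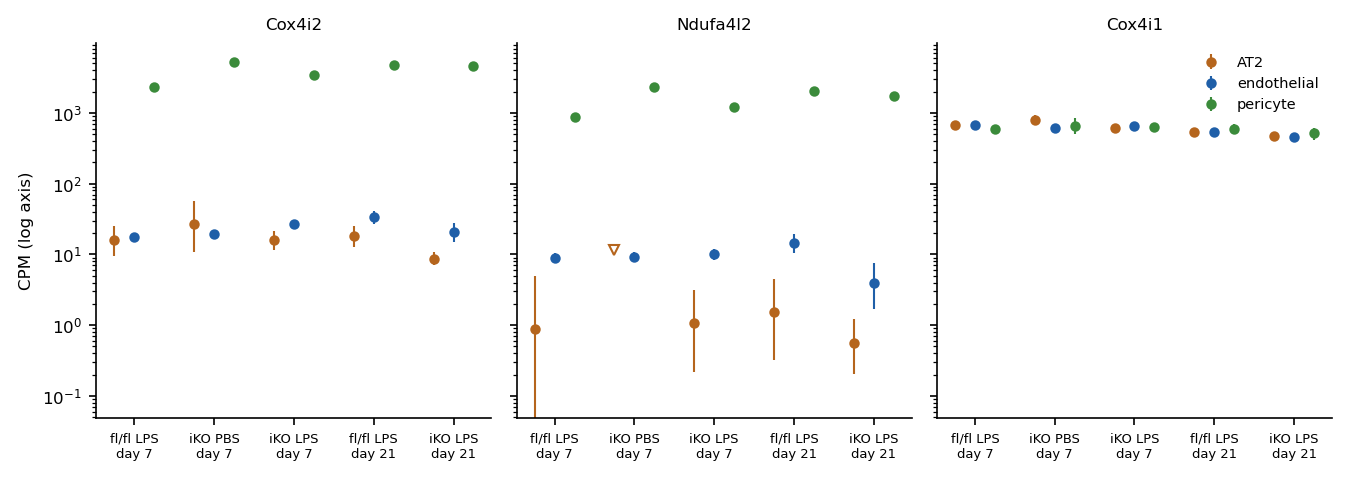
Cox4i2, Ndufa4l2 and Cox4i1 in AT2, endothelial and pericyte gates of the 5 libraries, in CPM on a log axis. Points pool the cells of a library, bars are exact Poisson 95% intervals that cover counting error only, and an open triangle marks the level that 3 counts would give where no UMI was seen; Cox4i2 and Ndufa4l2 are high in pericytes while Cox4i1 is alike in all 3 gates.

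Neighbouring pathways are given against the same background, in which 21.6% of all genes were higher and 35.9% lower in AT2. All 13 subunits encoded in mitochondrial DNA were higher in AT2 than in endothelial cells (median 1.26), as were 8 of 20 genes of the tricarboxylic acid cycle and pyruvate dehydrogenase, with Pcx, Suclg1 and Idh2 in the lead and Idh3b lower. Of 14 genes of fatty acid beta-oxidation, 7 were higher, Eci1, Hadh and Acaa2 by most, and Cpt1a and Hadhb were lower. In that pathway the acyl-CoA dehydrogenase step is the one that passes electrons to Etfa and Etfb. Glycolysis was split, with 6 of 19 higher (Hk2, Slc16a1 and Ldhb by most) and 7 lower (Pfkp, Pfkfb3 and Pfkm by most). The Pfkm value of all 13 mice leaned on the PBS mouse (-8.04), since the other groups were at -2.21 and -0.83 at day 7 and at 0.15 and -0.20 at day 21 (Itgb1 fl/fl, then Itgb1 iKO). Of a list of 35 other genes, mostly assembly and biogenesis factors, 9 were higher and 6 lower. Among the lower, Sdhaf1, Cox19 and Foxred1 leaned on the PBS mouse (-8.87, -8.75 and -7.77). In the other groups they were at -0.54 to 0.09, -1.20 to 0.26 and -1.40 to 0.22. A list of 9 genes held ADP, ATP and phosphate carriers together with porins, Ucp2 and Ckmt1. Of these, 3 were higher (Slc25a3, Slc25a5 and Ckmt1) and 4 lower (Slc25a4, Ucp2, Vdac2 and Vdac3). Of 14 regulators of mitochondrial biogenesis Tfb2m was higher and Pprc1, Polrmt and Nrf1 lower. Polrmt and Pprc1 leaned on the same mouse, at -7.61 and -7.95 there, against -2.84 to 0.05 and -2.57 to -0.79 in the other groups.

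Between genotypes these neighbours moved little, apart from the mitochondrial genome. In endothelial cells at day 7, where 2.55% of all genes were called, 8 of 13 subunits encoded in mitochondrial DNA were lower in Itgb1 iKO (median -0.36). The lowest were mt-Atp8, mt-Nd4l and mt-Co3, and the carrier Slc25a4 was higher. In AT2 cells at day 7 (1.8% of all genes called) mt-Nd2, Hk2 and Ldhb were lower and Eci1 higher. At day 21 (3.34% called) Ldhb and Echs1 were lower and Eci1 higher in AT2 cells. No gene of the tricarboxylic acid cycle list, the biogenesis factors or the regulators was called between genotypes at either day in either cell type. With LPS against PBS in endothelial cells, where 26.1% of all genes were called, mt-Nd6, mt-Nd5 and mt-Co1 were higher. Acadl, Cpt1a and Eci1 of beta-oxidation were lower, as was Ucp2 of the list with the carriers. Cox20, Atpif1 and 2010107E04Rik, of the list with the assembly factors, were higher. Among them Atpif1 encodes the inhibitor of the ATP synthase and 2010107E04Rik a small subunit of it. Glycolysis had 2 genes higher and 2 lower.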

How the data were processed

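UMI counts of 5′ single-cell libraries, with hashtag counts, were deposited by the authors as unnormalized count matrices; the submitters' notes name Cell Ranger 3.1 and Seurat 4.1.0 with mm10, and the ambient RNA and doublet removal of the study was not applied to the deposited counts. Genes and lists were chosen with earlier results of these data known. A hashtag was called at 4 times its background, and cells with exactly 1 were given to a mouse. Counts were summed per mouse and cell type (at least 5 cells) and tested with edgeR 4.0.16 (quasi-likelihood, robust, TMM, filterByExpr; Benjamini-Hochberg over all genes, threshold 0.05), with mouse as a block between cell types, since both types came from the same animals. Named members were the 3 of highest mean CPM per complex, tissue isoforms, X-linked members, Cycs, Cyc1 and the ETF genes, and up to 10 called per direction. Alternatives included DESeq2 1.42.0, library totals, no filter, other gates and hashtag calls, thinning, and each mouse left out. Scrublet's own threshold marked 0 to 1.55% of cells, too few in the day 7 libraries, so the highest scores were removed as an alternative. Scripts were tested on simulated data. Positions are from GENCODE (GRCm38), promoters from RefSeq GRCm38.p6. Libraries held 8360954 to 29128331 UMIs in kept cells; intervals cover counting error only.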

Additional observations from a re-analysis of the deposited data

Results flagged for a closer look

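The genotype effect on Etfb differed between day 7 and day 21, by a test of the difference itself, in AT2 cells (-1.87 on the log2 scale, edgeR adjusted p = 3.6e-07) and in endothelial cells (-0.98, edgeR adjusted p = 0.032). All 3 Itgb1 iKO mice were above all 3 Itgb1 fl/fl mice at day 7 in both cell types, and in AT2 cells all 3 were below at day 21. Etfb was picked by tests on the same mice, so this adds no support. The genotype effect on Cox6a2 differed between AT2 and endothelial cells at day 7 (-1.53, edgeR adjusted p = 9.1e-04) and at day 21 (-3.16, edgeR adjusted p = 0.010), with endothelial levels near 0. At day 21 the AT2 effect was -0.83 and the endothelial value 2.32 (SE 1.46), where Sftpc was at 2.28. The groups of 3 mice were too small to screen for single mice that stand apart.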

How the results depend on the processing

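The calls rest on 3 hashtags per group, each taken as 1 mouse, from 1 library each. AT2 cells were few in several mice, so small differences were not detectable. Counts of called members changed as follows; causes were not tested. With cells thinned to 2000 UMIs the counts were 0 for genotype in AT2 at day 7, 3 at day 21, 0 for the change between days in AT2, 2 for genotype in endothelial cells at day 21, 2 for LPS against PBS, 23 for AT2 against endothelial cells, and 0 for the difference between cell types at either day. Genotype in AT2 at day 21 gave 2 with library totals, 9 with only the groups compared and 1 with hashtags called by share. Genotype in endothelial cells at day 21 gave 4 with DESeq2 and 0 with hashtags called by share. LPS against PBS gave 10 with library totals, 7 with DESeq2 and 2 with only the groups compared. The difference between cell types gave 0 at both days with DESeq2. Without the mouse block that pairs the cell types it gave 0 at both days (Cox6a2, adjusted p = 0.26 and 0.40), and AT2 against endothelial cells gave 52 against 51. Leaving out each mouse gave 51 to 71 for AT2 against endothelial cells, 1 to 6 and 0 to 2 for genotype at day 21 in AT2 and endothelial cells, 0 to 6 for LPS against PBS, 0 to 1 for the change between days in endothelial cells and for the difference between cell types at each day, and 2 and 1 throughout for genotype at day 7 in AT2 and endothelial cells. Between AT2 and endothelial cells, direction turned with library totals for 14 of the 51 called members (Atp5g2 -0.13, Atp5g3 -0.23, Etfa -0.0080, Ndufa4 -0.30, Atp5h, Cox5a, Cox7c, Ndufb8, Ndufb9, Ndufs1, Ndufs8, Uqcr10, Uqcrfs1 and Uqcrq), and with thinned cells for Atp5g2 (-0.046), Cox6b1 (-0.012), Ndufa4 (-0.48) and Ndufb3 (-0.050). The mean summed share without secretory genes was 2.70, 2.21, 2.70, 2.27 and 1.94% in AT2 cells (Itgb1 fl/fl day 7, PBS, Itgb1 iKO LPS day 7, Itgb1 fl/fl and Itgb1 iKO day 21) and 1.74 and 1.61% in endothelial cells at day 21 (Itgb1 fl/fl and Itgb1 iKO). As a share of all UMIs, over all gated cells, the members were at 1.80% in PBS AT2 cells and 1.33% in Itgb1 iKO day 21 AT2 cells. In endothelial cells of Itgb1 fl/fl and Itgb1 iKO at day 21 they were at 1.68 and 1.51% of all UMIs. With thinned cells these 4 values were 1.44, 1.27, 1.75 and 1.60%. No alternative made LPS against PBS testable in AT2 cells.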
